A study of Mus musculus with 2 samples.

Results

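Schwann cells and their precursors are the glia of peripheral nerves, and 8 genes widely used to recognise them were examined in primary rib chondrocytes and primary dermal fibroblasts of the mouse. The 8 genes were *Foxd3*, *Egr2*, *Erbb3*, *Ngfr*, *Cdh19*, *Mbp*, *Pmp22* and *Gfap*, chosen by name among 24421 rows of a table of read counts per gene. All 8 were found. The RNA-Seq data held 2 libraries, 1 of each cell type, made with a stranded mRNA kit and read as 75 bp single ends. Chondrocytes came from collagenase-digested rib cartilage of newborn mice and were used within 2 passages, and dermal fibroblasts came from collagenase-digested dorsal skin of newborn mice. The labels give no strain, sex, genotype or treatment for either library.

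Peripheral glia derive from the neural crest, and they accompany axons into the skin and along the ribs. Precursors depend on neuregulin signals received through ErbB receptors, and they either wrap single axons in myelin or ensheathe bundles of thin axons as non-myelinating Schwann cells. None of the 8 genes is restricted to glia, since *Pmp22*, *Egr2* and *Ngfr* in particular are also transcribed in mesenchymal cells.

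The counts summed to 18788599 in chondrocytes and 17563724 in dermal fibroblasts, and 17718 genes had a count above 0 in at least 1 library. Levels are given as scaled counts-per-million values (CPM), for which the library totals were adjusted by TMM factors (0.954 for chondrocytes and 1.05 for dermal fibroblasts). One count equalled 0.0558 CPM in chondrocytes and 0.0543 CPM in dermal fibroblasts. For folds, a floor of 3 counts was applied to each library, and where a library was at 0 the fold is written as a lower bound against this floor. Each interval is a 95% Clopper-Pearson interval of the fold. It covers counting error only, as PCR reads that carry no molecular identifiers are not independent molecules. Since there was 1 library of each cell type, no difference has a replicate check and no p-value was computed. In such bulk samples, fewer cells of a type and less RNA per cell cannot be told apart.

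The labelled cell types were compared with their markers. *Col2a1*, the main collagen of cartilage, had 1447098 chondrocyte counts and 0 dermal fibroblast counts, at least 495432-fold higher. All 8 chondrocyte markers examined were over 2-fold higher in chondrocytes, among them *Acan* (148105 counts against 35) and *Sox9* (5045 against 342). Of 8 dermal fibroblast markers, 7 were over 2-fold higher in dermal fibroblasts, among them *Col1a1* (322379 counts against 39143) and *Pdgfra* (10527 against 2096). The remaining one, *Lum*, named after its values were seen, stayed within 2-fold (2881 counts against 3191). These markers were chosen with earlier results of these data known, so they describe the libraries and do not test the labels.

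Toward dermal fibroblasts, 5 of the 8 glial genes differed by over 2-fold (*Foxd3*, *Ngfr*, *Cdh19*, *Egr2* and *Erbb3*), and toward chondrocytes 0 did. The 8 genes were chosen with earlier results of these data known, so these counts describe the set and test nothing. The same threshold was passed by 13.9% of the 17718 detected genes toward dermal fibroblasts and by 10.7% toward chondrocytes. The excess of all detected genes toward dermal fibroblasts depends on the settings. It was 2468 genes against 1887, widened to 2847 against 1583 with total counts, narrowed to 2258 against 2139 with *Actb*, and was lost with a pseudocount of 1 in place of the floor (2846 against 2874). The whole counting interval lay beyond 2-fold for 3 of the 8 genes toward dermal fibroblasts (*Foxd3*, *Ngfr* and *Cdh19*) and for 0 toward chondrocytes, against 8.73% and 5.88% of detected genes. These shares, for 2-fold and for the whole interval, are the background for the list counts above and below. *Mbp*, *Pmp22* and *Gfap* stayed within 2-fold. The median log2 fold (dermal fibroblasts over chondrocytes) of the 8 genes was 1.16. Over all detected genes it was -0.04, the value that the floor gives a gene low in both libraries, and over the 14291 genes with at least 10 counts in 1 library it was 0.00. The 7 glial genes that passed this filter also had a median of 1.16. Summed over the 8 genes, the level was 280.6 CPM in chondrocytes and 350.7 CPM in dermal fibroblasts. *Pmp22* alone made up 86.5% and 56.6% of these sums, and without it they were 37.8 and 152 CPM. Of the usual defining markers of Schwann cells outside the 8, *Sox10* was over 2-fold higher in dermal fibroblasts and *S100b* was over 2-fold higher in chondrocytes. The set is therefore described gene by gene, and the counts do not show which cells made the transcripts.

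**Figure D1:**
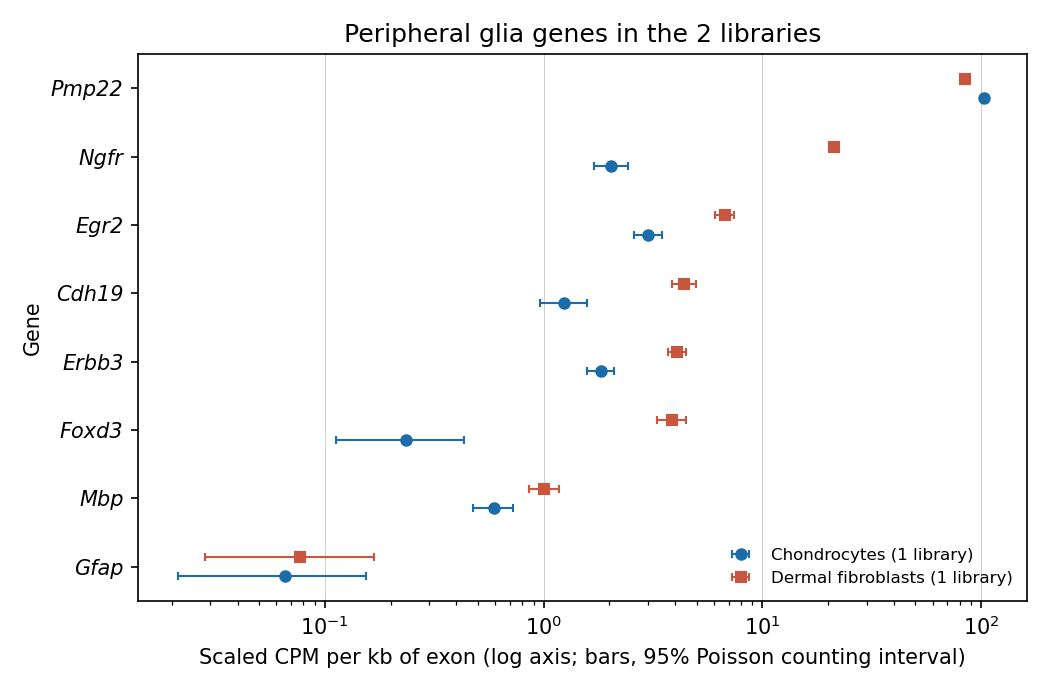
Levels of the 8 glial genes in scaled CPM per kb of exon (log axis) in the chondrocyte and the dermal fibroblast library, with bars for the exact 95% Poisson counting interval of each level. All but *Pmp22* have the higher value in dermal fibroblasts, although the intervals of *Gfap* overlap: *Ngfr* lies at 2.04 in chondrocytes and 21.3 in dermal fibroblasts, and *Pmp22* at 103 and 84.3.

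Among the transcription factors, *Foxd3* had the largest fold of the 8 genes. It encodes a forkhead factor of premigratory neural crest and early glial precursors, and it lies on chromosome 4 of GRCm38 from 99656299 to 99658671. The chondrocyte library held 10 counts (0.558 CPM) and the dermal fibroblast library 169 (9.18 CPM). The fold was 16.5, with an interval from 8.73 to 34.9. The low count in chondrocytes makes the interval wide, but its whole range is beyond 2-fold. It overlaps the interval of *Ngfr*, from 8.70 to 12.6, so counting error alone could reverse the order of these folds. *Egr2* encodes the zinc finger factor Krox20, which drives the myelination program of Schwann cells and is also an immediate early gene in other cells. It is located on chromosome 10 from 67534469 to 67542188. *Egr2* had 183 counts (10.2 CPM) in chondrocytes and 421 counts (22.9 CPM) in dermal fibroblasts. This gives a fold of 2.24 with an interval from 1.88 to 2.68, so counting error alone allows a fold under 2. The annotated span of *Egr2* shares 1712 bp with the noncoding RNA gene *Gm32255*, and the strand setting of the counting is not given in the sources used here, so reads from this stretch could belong to either gene.

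Other regulators of peripheral glia were examined beside these factors. Of a list of 17, which includes *Foxd3* and *Egr2*, 9 were over 2-fold higher in dermal fibroblasts, 1 was over 2-fold higher in chondrocytes and 7 were in neither group, with a median log2 fold of 1.16 that became 0.70 with a floor of 10 counts. The whole interval lay beyond 2-fold for 7 of the 9 and for the 1. *Sox10*, which is required for the formation of all peripheral glia and is also active in melanocytes, had 25 chondrocyte counts and 310 dermal fibroblast counts. Its fold was 12.1 (interval 8.03 to 18.9), between those of *Ngfr* and *Foxd3*, whose intervals it overlaps. *Zeb2*, which acts in Schwann cell differentiation and in many mesenchymal cells, had 1587 and 3881 counts, a fold of 2.38 (interval 2.25 to 2.53). The 5 others over 2-fold higher in dermal fibroblasts each had under 100 counts and were named after their values were seen. They were the neural crest genes *Sox2* (9 and 78 counts), *Tfap2a* (10 and 50), *Tfap2b* (0 and 36), *Pax3* (4 and 12) and the promyelinating factor *Pou3f1* (0 and 13). Against the floor, *Tfap2b* was at least 11.7-fold and *Pou3f1* at least 4.22-fold higher in dermal fibroblasts.

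The family of *Egr2* did not differ in a single direction. *Egr3* was the 1 factor of the list of 17 over 2-fold higher in chondrocytes, with 272 counts against 91 and a fold of 3.07 (interval 2.41 to 3.94). *Egr1*, the most abundant gene of the 17 in both libraries, had 3900 and 5319 counts, a fold of 1.33 toward dermal fibroblasts. *Nab1* and *Nab2* encode corepressors that bind EGR proteins and are needed for myelination together with *Egr2*. They stayed under 2-fold, at 1.63 and 1.90 toward dermal fibroblasts (*Nab2* at 2.09 with total counts), and both were named after their values were seen. Of the 6 genes of the EGR and NAB list, 2 were over 2-fold higher in chondrocytes (*Egr3* and *Egr4*, the latter with 10 and 4 counts and named after its values were seen) and 1, *Egr2*, in dermal fibroblasts. By the whole interval only *Egr3* was.

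Both receptors of the set were higher in dermal fibroblasts, and *Ngfr* differed the more. *Ngfr* encodes the low-affinity neurotrophin receptor p75, a surface protein of neural crest cells, Schwann cell precursors and non-myelinating Schwann cells. The gene covers chromosome 11 from 95568818 to 95587698. It had 126 counts (7.03 CPM) in chondrocytes and 1352 counts (73.4 CPM) in dermal fibroblasts. The fold was 10.4 with an interval from 8.70 to 12.6, the narrowest relative range among the 3 genes with an interval beyond 2-fold. *Erbb3* encodes the receptor that binds neuregulin and signals through its partner ErbB2, since its own kinase is nearly inactive. On chromosome 10, from 128567523 to 128589635, it had 197 counts (11.0 CPM) in chondrocytes and 452 counts (24.6 CPM) in dermal fibroblasts. The fold was 2.23 (interval 1.89 to 2.65), so its lower bound, like that of *Egr2*, is under 2. A microRNA gene inside *Erbb3*, *Mir6917*, had 0 counts in both libraries.

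Genes that act with *Ngfr* differed in part. Of 16 genes of neurotrophin signaling, *Ngfr* included, 7 were over 2-fold higher in dermal fibroblasts, 0 in chondrocytes and 9 in neither, and the whole interval lay beyond 2-fold for 6 of the 7. The median log2 fold was 0.19 and ranged from 0.06 with *Actb* to 0.65 with a pseudocount of 1. The ligand gene *Bdnf* had 13 chondrocyte counts and 210 dermal fibroblast counts, 15.7-fold apart (interval 9.00 to 30.0). *Sorcs2*, which encodes a sortilin-like coreceptor of p75, had 267 and 1726 counts, a fold of 6.29 (interval 5.53 to 7.19). *Rtn4r* and *Lingo1*, which encode the Nogo receptor and its partner in a complex with p75, were 7.40-fold (20 and 152 counts) and 2.74-fold (77 and 217 counts) higher in dermal fibroblasts. *Nradd*, a gene related to *Ngfr* in sequence, was 3.05-fold higher (210 and 657 counts). The remaining gene of the 7 was the ligand *Ntf3*, with 4 and 19 counts. The receptor tyrosine kinase gene *Ntrk2* had similar counts in both libraries (444 and 450, interval 0.864 to 1.13). For *Ntrk3* (16 and 17 counts) the interval, from 0.491 to 2.19, is too wide to read a difference or its absence. *Ntf3*, *Ntrk2* and *Ntrk3* were named after their values were seen.

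In the neuregulin and ErbB list of 20 genes, *Erbb3* included and 19 of them detected, 6 were over 2-fold higher in chondrocytes, 4 in dermal fibroblasts and 9 in neither. The whole interval lay beyond 2-fold for 4 of the 6 and 2 of the 4. Over all detected genes, 10.7% were over 2-fold higher in chondrocytes and 13.9% in dermal fibroblasts. *Nrg1*, the axonal ligand of *Erbb3*, had 31 chondrocyte counts and 134 dermal fibroblast counts, 4.21-fold apart (interval 2.83 to 6.44). *Lrig1*, whose product lowers ErbB receptor levels, was 4.16-fold higher in dermal fibroblasts (534 and 2282 counts, interval 3.78 to 4.58). The EGF receptor ligand genes *Tgfa* and *Hbegf* were 7.0-fold (545 and 80 counts) and 3.43-fold (538 and 161 counts) higher in chondrocytes. *Errfi1*, a feedback inhibitor of the receptors, was 2.31-fold higher in chondrocytes (2894 and 1288 counts). Besides *Erbb3*, the other genes over 2-fold, each under 100 counts and named after their values were seen, were *Egf*, *Areg* and *Ereg* in chondrocytes and *Btc* in dermal fibroblasts. *Erbb2*, the signaling partner of *Erbb3*, also named after its values were seen, had 1051 and 949 counts, a fold of 1.14 toward chondrocytes. *Erbb4* had 0 counts in both libraries.

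Promoter sequences from RefSeq (GRCm38.p6) were read for 5 of the 8 genes, *Pmp22*, *Ngfr*, *Foxd3*, *Egr2* and *Gfap*, as 12 windows of the 250 bases before an annotated start. *Mbp*, *Cdh19* and *Erbb3* had no window. Each window was searched on both strands for the core sequences bound by SOX proteins (ACAAAG and ACAATG), the EGR site (GCGNGGGCG), the GC box (GGGCGG, which can overlap the EGR site) and the TATA box (TATAAA). These letters occur in 16.5%, 10.7%, 4.70%, 32.7% and 12.4% of all 32851 windows of this length. The cyclic AMP response element (TGACGTCA) and the CArG box, the site of serum response factor, were added after the sequences were seen, and occur in 1.55% and 1.47% of all windows. No SOX core, EGR site or TATA box was found in the 12 windows, which says only that these letters are absent from them. The 2 genes with the largest folds, *Foxd3* and *Ngfr*, have 1 window each, shown here from 5′ to 3′ with the matches in capitals. The *Ngfr* window, chr11:95587699-95587948 on the minus strand, holds 4 GC boxes and is 70.4% G and C, against a median of 52.4% over all windows. The *Foxd3* window, chr4:99656049-99656298 on the plus strand, holds 1 cyclic AMP response element and is 65.6% G and C.
Ngfr: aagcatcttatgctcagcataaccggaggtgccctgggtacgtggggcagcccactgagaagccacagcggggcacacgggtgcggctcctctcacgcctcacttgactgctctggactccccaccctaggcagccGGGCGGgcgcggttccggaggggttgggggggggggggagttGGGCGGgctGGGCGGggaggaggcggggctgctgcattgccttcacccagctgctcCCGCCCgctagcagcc
Foxd3: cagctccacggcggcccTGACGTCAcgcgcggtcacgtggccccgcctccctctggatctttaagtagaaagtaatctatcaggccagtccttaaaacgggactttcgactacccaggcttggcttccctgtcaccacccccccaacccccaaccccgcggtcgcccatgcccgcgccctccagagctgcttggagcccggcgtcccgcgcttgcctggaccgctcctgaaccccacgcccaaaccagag

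Of the 5 *Egr2* windows, which belong to alternative starts and partly overlap, 4 hold a CArG box and 2 hold GC boxes, 4 in one and 1 in the other. Of these 4, 3 overlap and share 1 site, so they are not separate matches. GC boxes were not particular to *Ngfr*, since 2 of the 4 *Pmp22* windows hold 3 each, and the G and C content of the *Pmp22* windows ranged from 48.8% to 73.6%. The *Gfap* window holds none of the motifs. A match describes the letters in a window, and binding was not measured.

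*Cdh19* encodes a type II cadherin, a calcium-dependent adhesion protein found on Schwann cell precursors and later on non-myelinating Schwann cells. It lies on chromosome 1 from 110888002 to 110977601. The gene had 68 counts (3.79 CPM) in chondrocytes and 246 counts (13.4 CPM) in dermal fibroblasts, a fold of 3.52 with an interval from 2.68 to 4.68. Of 12 type II cadherin genes, of which 10 were detected, 3 were over 2-fold higher in dermal fibroblasts, 2 in chondrocytes and 5 in neither, and *Cdh7* and *Cdh9* had 0 counts in both libraries. *Cdh11*, the cadherin of mesenchymal cells, was the most abundant, with 1921 and 12341 counts and a fold of 6.25 (interval 5.96 to 6.57). *Cdh6*, which is expressed in the neural crest, had 8 and 129 counts and a fold of 15.7 (interval 7.73 to 37.1). The whole interval lay beyond 2-fold for all 3 toward dermal fibroblasts and for 0 toward chondrocytes. Those over 2-fold in chondrocytes, *Cdh18* (7 counts against 1) and *Cdh22* (13 against 2), rest on few counts and were named after their values were seen. Per length of exon, the *Cdh11* level in dermal fibroblasts was 159 CPM per kb, against 4.38 for *Cdh19*, so *Cdh19* lay far under *Cdh11* in that library. Among the genes of this list *Cdh19* came next after *Cdh11* there, close to *Cdh24* at 4.18 and above *Cdh6* at 2.66.

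Other genes of Schwann cell precursors and non-myelinating Schwann cells split in both directions. Of a list of 21, which includes *Cdh19*, *Ngfr*, *Gfap* and *Erbb3*, 11 were over 2-fold higher in dermal fibroblasts, 5 in chondrocytes and 5 in neither, with a median log2 fold of 1.16 that became 0.55 with a floor of 10 counts. By the whole interval the numbers were 9 and 4. *Gap43*, which encodes a growth-associated protein of axons and immature Schwann cells, was 6.90-fold higher in dermal fibroblasts (44 and 312 counts, interval 5.02 to 9.70). *Lgi4*, which encodes a secreted protein of Schwann cells needed for myelination, was 6.92-fold higher (28 and 199 counts, interval 4.64 to 10.7). The sodium channel gene *Scn7a*, typical of non-myelinating Schwann cells, was 3.31-fold higher (84 and 286 counts), and *Cadm4*, an adhesion gene of the contact between Schwann cell and axon, was 2.59-fold higher (150 and 399 counts). *Dhh* (6 and 15 counts) and *Gfra3* (3 and 47), named after their values were seen, were also over 2-fold higher in dermal fibroblasts. For *Gfra3* the ratio was 15.3 with an interval from 4.91 to 76.6.

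In the same list, *S100b*, the calcium-binding protein most used to stain Schwann cells and also a known product of chondrocytes, had 2657 chondrocyte counts and 87 dermal fibroblast counts, 31.4-fold apart (interval 25.3 to 39.3). *Mia*, known in cartilage as well as in melanocytic cells, had 762 chondrocyte counts against 0, which is at least 261-fold higher. The adhesion receptor gene *Adgrg6*, needed for myelination by Schwann cells and also active in cartilage, was 20.7-fold higher (3970 and 197 counts), and *Moxd1* was 24.3-fold higher (4164 and 176 counts). *Fabp7* was 2.43-fold higher (45 and 19 counts) and was named after its values were seen. With these genes included, the summed level of the list was 923 CPM in chondrocytes and 468 CPM in dermal fibroblasts, the reverse of the direction of its median.

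**Figure D2:**
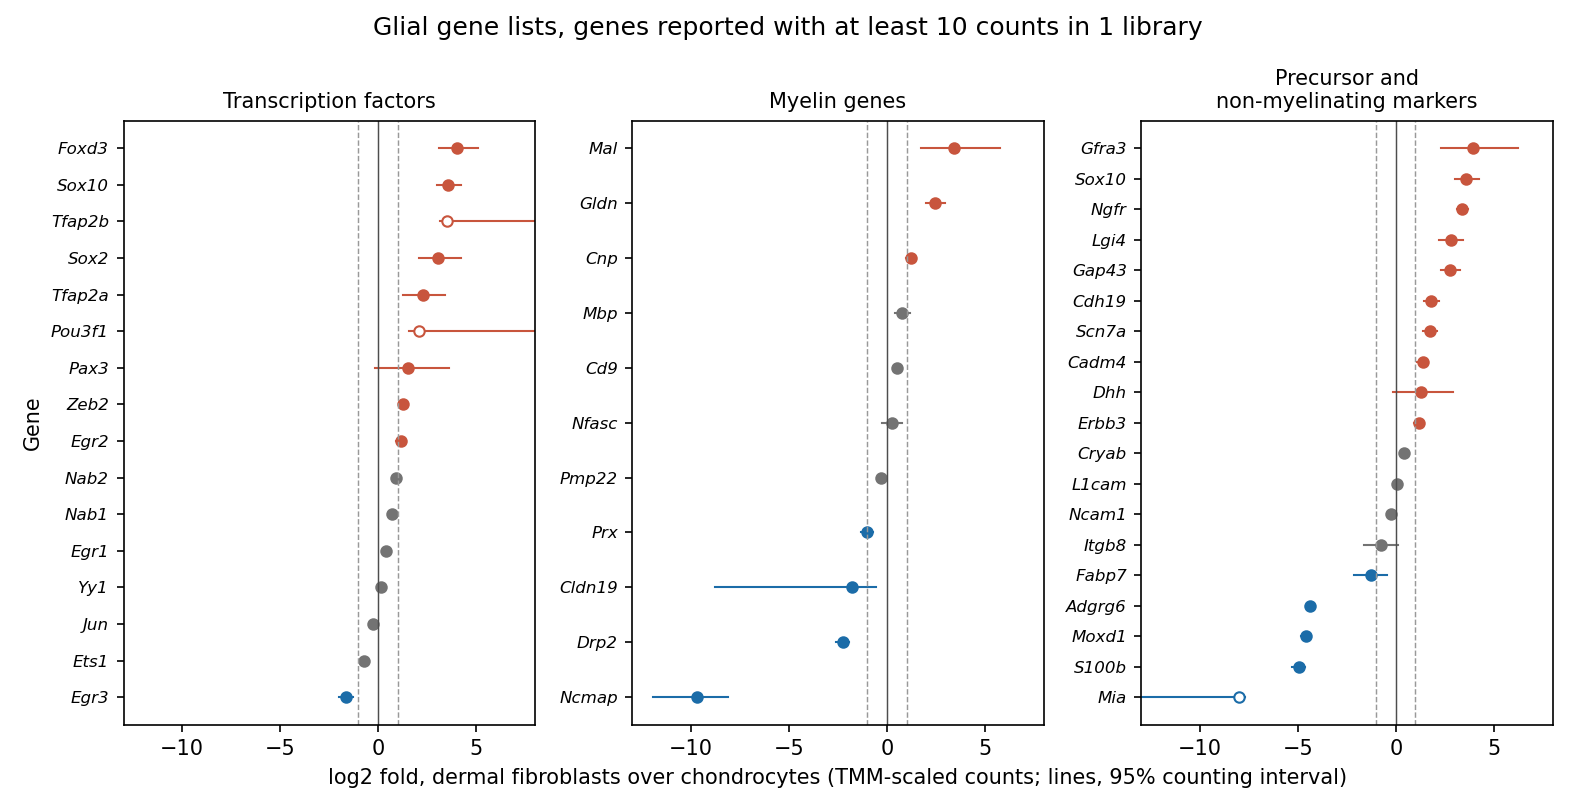
Log2 fold (dermal fibroblasts over chondrocytes, right is higher in dermal fibroblasts) of each gene with at least 10 counts in 1 library in the lists of transcription factors, myelin genes and precursor markers, other than those not reported here, with its 95% counting interval as a line and dashed lines at 2-fold, counts under 3 being set to 3 for the points. Red marks genes over 2-fold higher in dermal fibroblasts, blue over 2-fold higher in chondrocytes, grey neither, and open symbols, whose lines run off the axis, are lower bounds against a library at 0 counts, such as *Mia*, at least 261-fold higher in chondrocytes.

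Both myelin genes of the set stayed within 2-fold. *Mbp* encodes myelin basic protein, which compacts the cytoplasmic faces of the myelin membrane, and a longer transcript from the same locus, golli, is made in many other cells. It lies on chromosome 18 from 82475091 to 82585637. *Mbp* had 89 counts (4.97 CPM) in chondrocytes and 156 counts (8.47 CPM) in dermal fibroblasts. The fold was 1.71 (interval 1.31 to 2.24), higher in dermal fibroblasts beyond counting error but not beyond 2-fold. Counts per gene do not separate golli from the myelin transcripts. The *Mbp* span also contains the pseudogene *Rpl21-ps8* (547 bp) and the noncoding RNA gene *Gm52337* (18076 bp). No separate counts of either were available here, so reads from these stretches could be part of the *Mbp* count.

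*Pmp22*, on chromosome 11 from 63128982 to 63159547, encodes a tetraspan protein of compact myelin that is also made by growth-arrested fibroblasts. It was by far the most abundant of the 8 genes, with 4352 counts (243 CPM) in chondrocytes and 3655 counts (199 CPM) in dermal fibroblasts. Its level was 1.22-fold higher in chondrocytes (interval 1.17 to 1.28), the 1 gene of the 8 with the higher value there. This difference exceeds counting error, and it ranged from 1.11-fold to 1.33-fold under the other settings tried. Among detected genes with an exon length, the *Pmp22* level ranked at the 97.3 percentile in chondrocytes and the 96.4 percentile in dermal fibroblasts. Its relatives of the EMP family were also abundant. *Emp1* had 4601 and 11530 counts (2.44-fold higher in dermal fibroblasts, interval 2.36 to 2.53) and *Emp2* had 1440 and 5207 counts (3.52-fold, interval 3.32 to 3.74). *Emp3* was 1.59-fold higher in dermal fibroblasts and was named after its values were seen, and *Lim2*, a gene of the lens, had 0 counts in both libraries.

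Genes for myelin proteins and lipids were examined as a list of 20, which includes *Mbp* and *Pmp22*. Of the 19 detected, 4 were over 2-fold higher in dermal fibroblasts, 5 in chondrocytes and 10 in neither, and the whole interval lay beyond 2-fold for 3 and 2 of them. Over all detected genes the shares were 13.9% and 10.7%, and 8.73% and 5.88% by the whole interval. *Gldn*, which encodes a Schwann cell protein that gathers sodium channels at nodes of Ranvier, was 5.55-fold higher in dermal fibroblasts (46 and 262 counts, interval 4.04 to 7.76). *Cnp*, an enzyme gene of myelin-forming cells that is also widely expressed, was 2.34-fold higher (195 and 469 counts, interval 1.98 to 2.78). *Mal*, which encodes a raft protein of myelin membranes, had 3 and 33 counts, with a ratio of 10.7 and an interval from 3.36 to 54.6, and was named after its values were seen.

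Among the myelin genes higher in chondrocytes, *Ncmap*, which encodes a membrane protein of noncompact myelin, had 2408 counts against 3. Its ratio was 824, with an interval from 282 to 4000. *Drp2* and *Prx*, whose products form the dystroglycan complex of the Schwann cell membrane, were 4.76-fold (431 and 93 counts) and 2.05-fold (265 and 133 counts) higher. The interval of *Prx* ran from 1.66 to 2.54, and scaling by total counts took its fold to 1.86. *Mag* (8 and 2 counts) and *Cldn19* (10 and 1), named after their values were seen, completed the 5. *Mobp*, a gene of central myelin, had 0 counts in both libraries.

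*Gfap* encodes the glial fibrillary acidic protein, an intermediate filament of astrocytes and non-myelinating Schwann cells, and lies on chromosome 11 from 102887336 to 102897200. It had 5 counts (0.279 CPM) in chondrocytes and 6 counts (0.326 CPM) in dermal fibroblasts. The fold was 1.17 with an interval from 0.297 to 4.84, so neither a difference nor its absence can be read at this depth. Of 10 such genes, *Gfap* included, 5 were over 2-fold higher in chondrocytes, 0 in dermal fibroblasts and 5 in neither, with 3 of the 5 by the whole interval. *Vim*, the filament of mesenchymal cells, had 41665 and 54121 counts, and was the most abundant of the 10 in both libraries. *Synm* was 5.20-fold (228 and 45 counts) and the muscle filament gene *Des* 2.35-fold (3790 and 1655 counts) higher in chondrocytes. The other genes were the neuronal *Prph* (21 and 7 counts), *Nefl* (12 and 4) and *Nefm* (56 and 3), named after their values were seen.

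The order of the 8 genes by level, in CPM per kb of exon, was led by *Pmp22* in both libraries, at 103 in chondrocytes and 84.3 in dermal fibroblasts. In dermal fibroblasts *Ngfr* followed at 21.3 and *Egr2* at 6.73. *Cdh19* at 4.38, *Erbb3* at 4.08 and *Foxd3* at 3.87 came next, and their counting intervals overlapped. *Mbp* at 1.01 and *Gfap* at 0.0773 were lowest. In chondrocytes *Egr2* at 3.0 stood after *Pmp22*, and *Ngfr* at 2.04 and *Erbb3* at 1.83 followed with overlapping intervals. *Cdh19* was at 1.24, *Mbp* at 0.591, *Foxd3* at 0.235 and *Gfap* at 0.0661, and the intervals of *Foxd3* and *Gfap* overlapped. *Ngfr* therefore exceeded *Egr2* in dermal fibroblasts and lay under it in chondrocytes. *Foxd3* stood beside *Cdh19* and *Erbb3* in dermal fibroblasts and far under them in chondrocytes.

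Markers of other cell types also differed between the libraries, and their part in the differences of the glial genes was not tested. Melanocytes arise from the neural crest as well and share *Sox10* and *Erbb3* with glia. Of 10 melanocyte markers, 9 were over 2-fold higher in dermal fibroblasts and 0 in chondrocytes, with a summed level of 261 CPM in chondrocytes and 1008 CPM in dermal fibroblasts. *Gpnmb*, which macrophages and other cells also express, was the most abundant (4208 and 16002 counts), and without it the sums were 26.2 and 139 CPM. The pigment genes *Dct* and *Tyrp1* had 0 counts in chondrocytes and 238 and 149 in dermal fibroblasts, at least 77.2-fold and 48.4-fold higher, and *Slc45a2*, named after its values were seen, had 0 and 14. *Mitf* was 3.89-fold (150 and 599 counts) and *Ednrb* 4.56-fold (288 and 1349 counts) higher in dermal fibroblasts.

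Of 8 keratinocyte markers, 4 were over 2-fold higher in dermal fibroblasts and 1, *Itga6*, in chondrocytes, with summed levels of 135 and 303 CPM in chondrocytes and dermal fibroblasts. *Krt14* was the most abundant of them in dermal fibroblasts and *Itga6* in chondrocytes, and *Dsg3* was at 0 counts in chondrocytes. Without *Itga6*, which many other cells express, the sums were 8.93 and 252 CPM. *Krt14* was 111-fold higher in dermal fibroblasts (17 and 1939 counts, interval 69.2 to 191), and *Dsp* was 26.0-fold higher (27 and 722 counts). *Krt5* had 1 and 1693 counts, a fold of 549 with the floor applied to chondrocytes. Without the floor its ratio was 1648 (interval of this ratio 295 to 65144). Of 7 endothelial markers, 6 were over 2-fold higher in dermal fibroblasts and 0 in chondrocytes, with summed levels of 15.5 and 53.5 CPM. The most abundant were *Pecam1* and *Kdr*, with 70 counts each, in chondrocytes and *Kdr* in dermal fibroblasts, and none was at 0. The whole interval lay beyond 2-fold for 5 of the 6, and *Emcn*, one of the 6, had a fold of 1.92 with *Actb* scaling. Of 7 macrophage markers, 1, *Csf1r*, was over 2-fold higher in dermal fibroblasts and 0 in chondrocytes, with summed levels of 112 and 176 CPM, *Lyz2* the most abundant in both and none at 0. For macrophage markers, 1 of 7 is near the 13.9% of all detected genes that passed 2-fold toward dermal fibroblasts. Skeletal muscle markers lay the other way, with 6 of 9 over 2-fold higher in chondrocytes and 0 in dermal fibroblasts. Their summed levels were 1452 and 871 CPM, the most abundant was *Myh3* in both libraries, and none was at 0. The whole interval lay beyond 2-fold for 5 of the 6, and *Myog*, one of those 6, had a fold of 1.91 with total counts. The part of these cell types in the glial folds was likewise not tested.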

How the data were processed

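The authors sequenced stranded mRNA libraries, mapped the reads to mm10 and deposited read counts per gene without scaling. The submitters' processing notes name CASAVA 1.8.2, TopHat2 2.0.13, Bowtie2 2.2.3 and SAMtools 0.1.19. The counting program, its annotation and its strand setting are not given in the sources used here. TMM factors were computed with edgeR 4.0.16 in R 4.3.3 over all rows, and folds, intervals and levels with scipy 1.17.1, pandas 2.3.3 and numpy 2.4.6 under Python 3.11.15. Symbols turned into dates (27 rows) stayed in totals and gene counts. Exon lengths were those of GENCODE vM1 (NCBIM37), used for lengths only, and covered 89.8% of detected genes. Positions and promoters were those of RefSeq for GRCm38.p6, the assembly of mm10. *Bex3* was matched through its older symbol. Genes were named if they belonged to the 8, or if they had at least 100 counts in 1 library and a fold over 2, else the 3 most abundant of a list, and the most abundant gene and markers at 0 counts were added for some lists after their values were seen. Some genes of the lists enter the list counts and are not reported here by name. Members and lists were chosen with earlier results of these data known. The calculation was run on simulated Poisson counts, with 4-fold changes put into genes with at least 100 expected counts. This checks the arithmetic only, as the simulation held no variation between replicates. Alternatives were total counts, DESeq2 1.42.0 median of ratios, the upper quartile, totals without the 10 most abundant genes, *Actb*, a floor of 1 or of 10 counts, a pseudocount of 1 instead, a filter at 10 counts, a fold over 4 and the whole interval beyond 2-fold.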

Additional observations from a re-analysis of the deposited data

How the results depend on the processing

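Settings were changed singly. No paired analysis was possible because the design holds a single library of chondrocytes and a single library of dermal fibroblasts. The 5 glial genes over 2-fold higher in dermal fibroblasts stayed over 2-fold under all scalings tried, *Erbb3* between 2.05 and 2.45 and *Egr2* between 2.06 and 2.46. Of 64 recomputed folds of the 8 genes, 62 stayed within the counting interval and 2 left it: *Pmp22* (dermal fibroblasts over chondrocytes) went from 0.818 to 0.898 with total counts and to 0.751 with *Actb*. *Gfap*, at 1.17, became 0.974 under a floor of 10 counts, which sets both libraries to the floor. A fold over 4 left 2 of the 8 genes higher in dermal fibroblasts, and the whole interval beyond 2-fold left 3. Over all genes, a fold over 4 gave 713 genes higher in chondrocytes and 929 in dermal fibroblasts, and the whole interval gave 1041 and 1546, against 1887 and 2468. A pseudocount of 1 in place of the floor gave 2874 and 2846, so the excess toward dermal fibroblasts was lost. Of genes past 2-fold, 56.7% were toward dermal fibroblasts, 64.3% with total counts and 51.4% with *Actb*. Stricter thresholds remove genes by construction, and a change of scaling moves every log2 fold by the same amount. The floors and the pseudocount act mainly on genes with few counts. Total counts shifted every log2 fold by 0.14 toward dermal fibroblasts and *Actb* by -0.12. Of 180 recomputed list medians, 166 stayed between the medians of their genes' lower and upper interval bounds and 14 did not. Among the 14 is the transcription factor list, whose median, 1.16, became 0.70 under a floor of 10 counts.

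Depth limits *Gfap* and the chondrocyte value of *Foxd3*, which rest on 10 counts or fewer. With 1 library per cell type, variation between animals or cultures is not measured.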

Other observations

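Genes linked to the repair state of Schwann cells, which injured nerves enter through *Jun*, were examined as a list of 13, of which 11 were detected. Of these, 5 were over 2-fold higher in dermal fibroblasts (4 by the whole interval), 1 in chondrocytes and 5 in neither. *Gdnf*, which encodes a survival factor for motor and sensory neurons, had 28 chondrocyte counts and 318 dermal fibroblast counts, 11.1-fold apart (interval 7.50 to 16.9). *Artn*, a relative of *Gdnf*, lay the other way with 262 and 67 counts and was 4.02-fold higher in chondrocytes (interval 3.06 to 5.33). *Bdnf*, *Ngfr* and *Sox2* are given with the receptors and factors, and *Il6*, named after its values were seen, had 24 and 63 counts. *Jun*, the most abundant of the list in both libraries, had 1637 and 1415 counts, and *Shh* and *Olig1* had 0 in both.

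Neuron and central glia markers had low summed levels or were led by genes of other cells. Of 9 neuron markers, 7 of them detected, 4 were over 2-fold higher in dermal fibroblasts (1 by the whole interval) and 1 in chondrocytes (0 by the whole interval). Their summed level was 14.0 CPM in chondrocytes and 30.8 CPM in dermal fibroblasts, led by *Uchl1* in chondrocytes and by *Tubb3* in dermal fibroblasts (83 and 349 counts). *Elavl3* and *Rbfox3* had 0 counts in both libraries. Of 9 central glia markers, 7 of them detected, 2 were over 2-fold higher in chondrocytes and 1 in dermal fibroblasts, with summed levels of 647 and 219 CPM. Among all detected genes, 10.7% and 13.9% passed 2-fold in these directions. *Cspg4*, which pericytes and cartilage also express, led that list in both libraries (10824 and 2976 counts), and without it the sums were 42.9 and 57.1 CPM, with the higher value in dermal fibroblasts. *Slc1a3* was 2.71-fold higher in chondrocytes (523 and 198 counts), and *Aldh1l1* was 6.88-fold higher in dermal fibroblasts (98 and 692 counts, interval 5.56 to 8.58). *Mobp* and *Aqp4* had 0 counts in both. Their part in the folds of the glial genes was not tested.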
